A study of Mus musculus with 6 samples.

Results

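The complement genes described here are C1qa, C1qb, C1qc, C3, C4b, Cfi, Serping1, Cd59a and Cfb, taken by symbol from a table of gene expression in mouse retina. These 9 genes are a fixed list of components and regulators of the complement system, and each symbol matched 1 of the 28627 genes in the table. The filter on low values kept 8 of them, all but Cfb, among 16681 genes tested. The libraries were made from poly-A RNA of whole retina at postnatal day 15 from pups in the oxygen-induced retinopathy model, a model in which capillaries regress in high oxygen and sprout after the return to room air. There were 3 libraries from Emcn+/+ pups and 3 from Emcn-/- littermates, so every library in both groups carried the oxygen treatment, and no library from pups kept in room air was analysed here. The product of Emcn is endomucin, a mucin-like glycoprotein found on endothelial cells. The labels name no Cre driver for the Emcn-/- genotype, no strain and no pooling, and they do not say whether each library came from its own pup. The p-values below therefore measure the spread between these samples, which may be technical.

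Complement is a cascade of plasma and tissue proteins that tags cells, debris and synapses. C1q, built from the A, B and C chains, recognises a surface and starts the classical pathway through the proteases C1r and C1s. C1s then cuts C4 and C2 to form the enzyme that cleaves C3. Factor B drives the alternative pathway, which amplifies C3 cleavage, while factor I, C1 inhibitor and CD59 restrain the cascade at successive steps. In the retina and brain C1q is made mainly by microglia, and C3 and C4 are made largely by astrocytes, Müller glia and other cells when they become reactive.

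Emcn itself stood at 93.3, 80.6 and 100.5 normalised reads in Emcn+/+ replicates 1, 2 and 3 and at 1.95, 1.04 and 4.62 in the Emcn-/- replicates, so each library matched its label. The libraries held between 14865868 and 17087621 reads. All 10 rod markers listed were found and tested, and their summed level ran from 828000 to 962200 normalised reads, as in retina. Emcn+/+ replicate 3 stood apart. It was the only library with the reads of a female, 17641 of Xist against 1 to 5 elsewhere. Its summed level of 24 interferon response genes was 12130 normalised reads against 2248 to 2735 in the other 5 libraries. It shared with Emcn-/- replicate 3 a separate range of sample titles, 186 and 188 against 144 to 148 for the other 4 libraries, and the labels do not say what the numbers stand for. For this reason the members are also given without Emcn+/+ replicate 3 and within each title range.

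The sequences just before the starts of C1qb, C3 and Cd59a are shown: C1qb stands for microglial C1q, C3 is the central component set beside it, and Cd59a is the member whose genotypes did not overlap. RefSeq promoters (GRCm38.p6) were matched for 4 of the 9 members, C1qb, C1qc, C3 and Cd59a. Each sequence below is the 250 bases before the RefSeq start, read 5′ to 3′ on the gene's strand. That start equals the GENCODE start for C3 and Cd59a and lies 13 bases upstream of it for C1qb. The C1qc window is not printed, because 151 of its bases lie inside the GENCODE gene. Capitals mark matches, on either strand, to GAGGAA, the core of sites for the myeloid factor PU.1, to TTGCNNAA, a short form of sites for C/EBP factors, or to GAAANNGAAA, a short form of interferon response elements.
C1qb, chr4:136886201-136886450, minus strand: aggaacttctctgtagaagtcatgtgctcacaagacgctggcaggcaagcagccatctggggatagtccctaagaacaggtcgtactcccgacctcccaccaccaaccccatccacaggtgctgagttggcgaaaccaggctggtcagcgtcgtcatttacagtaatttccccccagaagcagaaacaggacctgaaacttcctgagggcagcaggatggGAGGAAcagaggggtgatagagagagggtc
C3, chr17:57228137-57228386, minus strand: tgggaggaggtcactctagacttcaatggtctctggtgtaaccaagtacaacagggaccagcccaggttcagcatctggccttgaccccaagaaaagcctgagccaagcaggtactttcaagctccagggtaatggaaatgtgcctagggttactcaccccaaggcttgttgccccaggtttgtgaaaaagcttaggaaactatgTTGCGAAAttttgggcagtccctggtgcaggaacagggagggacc
Cd59a, chr2:104095551-104095800, plus strand: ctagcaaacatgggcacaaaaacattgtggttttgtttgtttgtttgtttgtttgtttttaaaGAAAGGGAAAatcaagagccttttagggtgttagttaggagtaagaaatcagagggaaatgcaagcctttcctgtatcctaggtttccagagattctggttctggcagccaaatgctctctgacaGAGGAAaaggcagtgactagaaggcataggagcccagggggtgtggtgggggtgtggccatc
GAGGAA stood 30 to 25 bases before the RefSeq start of C1qb and 62 to 57 bases before that of Cd59a, on the gene's strand. The C3 window held 1 match to TTGCNNAA, 45 to 38 bases before the start. Of 32851 promoter windows of the same length, 23.25% held GAGGAA and 9.56% held TTGCNNAA. GAAANNGAAA stood 187 to 178 bases before the start of Cd59a and occurred in 2.98% of all windows. TTCNNNGAA, the letters of sites for STAT factors, was not in these 3 windows and occurred in 7.02% of all windows. No motif overlapped another in the windows shown. A match describes the letters only.

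The first question was at what level each complement gene is read in these retinas. Expressed per kilobase of annotated exon, an approximate scale for comparing genes, Cd59a had the highest level at 282 ± 39.8 normalised reads per kb (SD over all 6 libraries, genotypes mixed). C1qb (264 ± 77.1) and C1qa (258 ± 65.3) followed, and these 3 genes did not differ beyond their spread. C1qc stood at 126 ± 39.7, below C1qa and C1qb in each of the 6 libraries. The length used is that of all annotated exons, 1931 bp for C1qc, 1040 bp for C1qa and 1088 bp for C1qb. Before division by length the means were 243, 268 and 287 in the same order, so the gap depends largely on that length. Serping1 (81.3 ± 37.3) and C4b (52.9 ± 27.7) came next with overlapping ranges, 47.7 to 149 and 32.4 to 105. Cfi (13.7 ± 4.84) and C3 (12.1 ± 3.38) were the lowest of the tested members and did not differ beyond their spread. C4b was thus read more than C3 per kilobase in every library, by between 2.87 and 6.36 times.

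**Figure D1:**
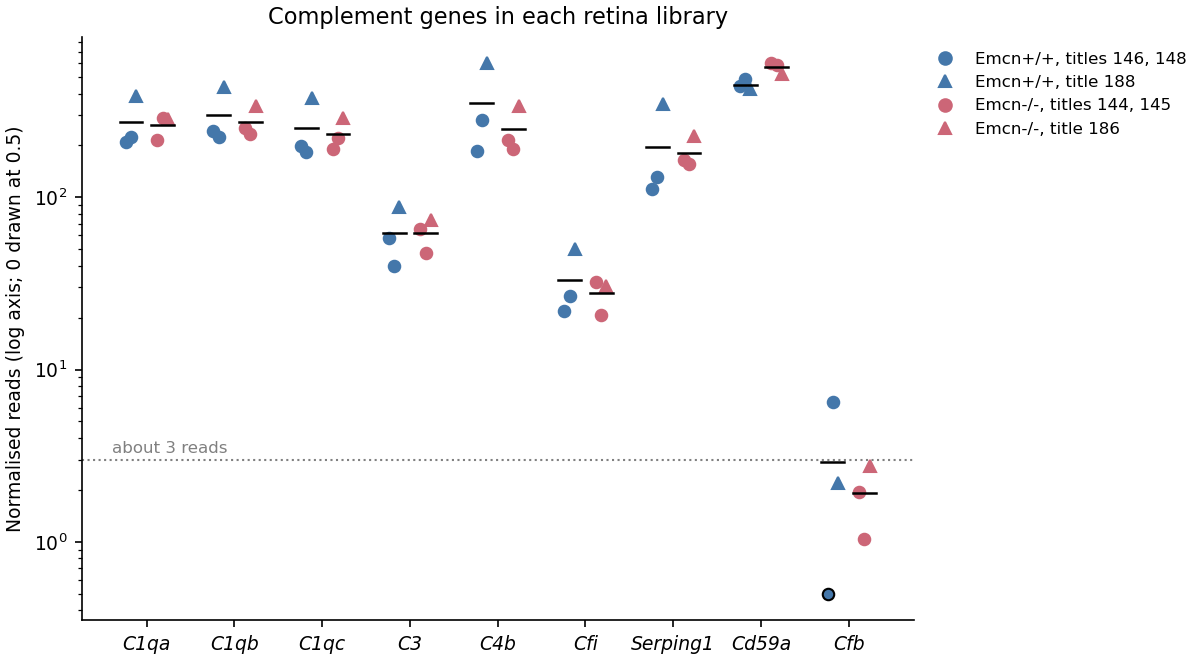
Normalised reads (log axis) of the 9 complement genes in each library, with circles for the lower sample titles, triangles for titles 186 and 188, blue for Emcn+/+, red for Emcn-/- and black bars for group means (n = 3). The blue triangle, Emcn+/+ replicate 3, is the highest point for 7 of the 8 tested genes, and only Cd59a has all red points above all blue points. The dotted line marks about 3 reads, and the 1 value of 0 (Cfb) is drawn at 0.5.

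The comparison between Emcn-/- and Emcn+/+ called none of the complement genes. Of the 8 tested members, 0 passed an adjusted p of 0.05 with limma, where 0.00599% of all tested genes did, and 0 passed with edgeR (0.00599%) or DESeq2 (0.402%). An unadjusted p under 0.05 was reached by 1 member, Cd59a, against 8.14% of all tested genes. Log2 fold changes were positive for 3 members and negative for 5, with a median of -0.03, against a median of 0.01 over all tested genes. All Emcn-/- values lay above all Emcn+/+ values for 1 member and below them for 0, against backgrounds of 7.48% and 6.94%. In bulk retina, a change in the number of cells of a type and a change in RNA per cell cannot be told apart.

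C1q, the recognition molecule of the classical pathway, had no chain gene past the adjusted threshold between the genotypes. The genes of its 3 chains lie next to each other on GRCm38 chromosome 4, on the minus strand, with C1qb at 136880129 to 136886187, C1qc at 136889804 to 136893065 and C1qa at 136895917 to 136898803. C1qa was read at 208, 223 and 387 normalised reads in Emcn+/+ replicates 1, 2 and 3 and at 216, 289 and 286 in the Emcn-/- replicates. The Emcn-/- values lay inside the range of the Emcn+/+ values, whose replicate 3 was far above replicates 1 and 2. The log2 fold change on the log2(value + 1) scale was -0.00 ± 0.23 (SE; limma adjusted p = 0.997), and its 95% interval ran from 0.698-fold to 1.42-fold. C1qb was read at 242, 223 and 436 in Emcn+/+ and at 252, 232 and 339 in Emcn-/- (-0.08 ± 0.25, limma adjusted p = 0.946). C1qc was read at 198, 183 and 379 in Emcn+/+ and at 190, 222 and 287 in Emcn-/- (-0.06 ± 0.27, limma adjusted p = 0.966). Replicate 3 held the highest value of its genotype for each chain, except for C1qa in Emcn-/-, where replicate 2 was marginally higher.

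The proportion of the chains was nearly constant for C1qc and varied more for C1qa and C1qb. C1qc made up between 18.3% and 20.3% of the summed C1q level per kilobase in all 6 libraries. The size of this share depends on the exonic length used, which is longest for C1qc. C1qa made up 37.35% to 41.7% in 5 libraries and 45.9% in Emcn-/- replicate 2, where C1qb was lowest at 35.2% against 39.9% to 43.1% elsewhere. That library therefore had the C1qa chain ahead of C1qb by the widest margin.

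Microglial markers differed among themselves in how much they varied across the same libraries. The highest library was 1.91 times the lowest for summed C1q, and this ratio was narrower for 11 of 15 microglial markers and wider for 4, from 1.19 to 2.93. Cx3cr1, the fractalkine receptor of microglia, had the narrowest ratio of the 15 and was read at 233, 221.5 and 264 normalised reads in Emcn+/+ and at 240.5, 239 and 240.3 in Emcn-/-. The summed C1q level was 2.78, 2.84 and 4.55 times the level of Cx3cr1 in Emcn+/+ replicates 1, 2 and 3 and 2.74, 3.12 and 3.80 times in the Emcn-/- replicates. Replicate 3 of each genotype was thus the highest on this ratio, and the genotypes overlapped. All 15 symbols of a list of microglial markers were found and tested, 7 with positive and 8 with negative log2 fold changes, and 0 passed. Their summed level ran from 2021 to 2818 normalised reads in Emcn+/+ and from 2169 to 2458 in Emcn-/-, and none was at 0. Relative to that sum, C1q amounted to 27.9%, 31.1% and 42.6% in Emcn+/+ and to 30.3%, 33.5% and 37.1% in Emcn-/-. Of 10 markers of other macrophages and monocytes, 5 passed the filter on low values, and the list's summed level ran from 481 to 702 in Emcn+/+, highest in replicate 3, and from 470 to 557 in Emcn-/-. Their part in the C1q values was not tested.

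C4b, the gene of a C4 protein, which C1s cleaves, had the widest spread of the tested members. It lies on GRCm38 chromosome 17, 34728380 to 34743882, and was read at 185, 281 and 599.5 normalised reads in Emcn+/+ and at 215, 190 and 338 in Emcn-/-. The genotypes overlapped, with the highest value in Emcn+/+ replicate 3 and the next in Emcn-/- replicate 3. The log2 fold change was -0.39 ± 0.38 (SE; limma adjusted p = 0.803), with a 95% interval from 0.418-fold to 1.40-fold. Without Emcn+/+ replicate 3 it was 0.08 ± 0.24 (limma adjusted p = 0.905), so the sign of the estimate depended on that library. C4b reads are also uncertain because of C4a, a close copy that lies 65210 bp away: 34.6% of the 50-base words of the C4b transcript occur in C4a. C4a itself was read at 24.9, 49.1 and 30.6 in Emcn+/+ and at 22.4, 14.5 and 16.6 in Emcn-/-, with all Emcn-/- values below all Emcn+/+ values (-0.89 ± 0.32, limma adjusted p = 0.534). How reads shared by these copies were assigned is not stated in the labels.

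C3, the component on which all pathways converge, was read at 58.1, 39.9 and 87.4 normalised reads in Emcn+/+ and at 65.2, 47.7 and 73.9 in Emcn-/-. These values overlapped fully, and the log2 fold change was 0.06 ± 0.30 (SE; limma adjusted p = 0.969, 95% interval 0.653-fold to 1.67-fold). C3 lies on GRCm38 chromosome 17, 57203970 to 57228136. With 43 to 80 reads per library, its counting error is larger than that of the C1q genes.

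Microglial C1q was then set against C3 and C4b within each library. The mean log2(value + 1) of the C1q genes exceeded that of C3 and C4b by 1.05, 0.968 and 0.799 in Emcn+/+ replicates 1, 2 and 3 and by 0.872, 1.36 and 0.931 in the Emcn-/- replicates. The means were 0.94 ± 0.13 and 1.05 ± 0.27 (SD, n = 3), a difference of 0.12, which is smaller than the spread within Emcn-/-. The highest margin was in Emcn-/- replicate 2 and the lowest in Emcn+/+ replicate 3, where C4b was highest. Because the score is made from the members, it is given without a test.

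**Figure D2:**
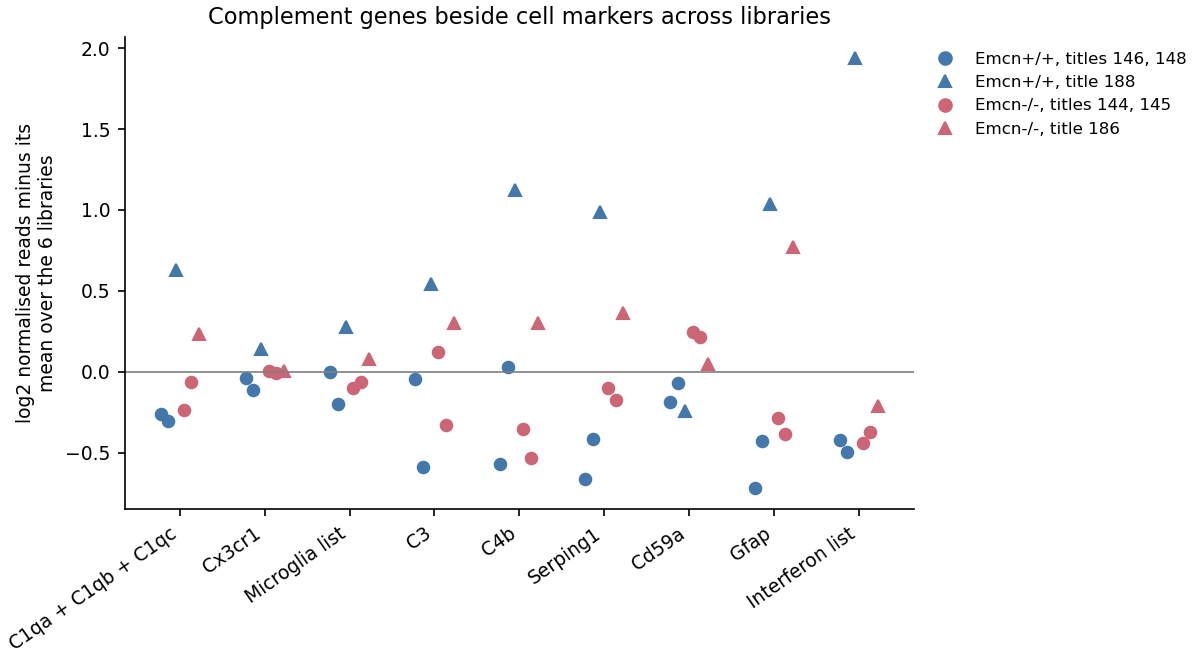
Log2 normalised reads minus their mean over the 6 libraries, for complement genes beside Cx3cr1, the summed microglial list, Gfap and the summed interferon list. Colours and shapes stand for genotype and sample titles as in the plot of the members. Cx3cr1 spans -0.11 to 0.14 while summed C1q spans -0.30 to 0.63, and the interferon list is high in Emcn+/+ replicate 3 alone.

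Several members were highest in the same pair of libraries, 1 of each genotype. Both libraries titled 186 and 188 lay above the other 4 for C1qb, C1qc, C3, C4b and Serping1, which is 5 of 8 tested members against 12.8% of all tested genes. Serping1 in Emcn+/+ replicate 3 was 2.86 times the mean of the other Emcn+/+ libraries, and in Emcn-/- replicate 3 it was 1.41 times the mean of the other Emcn-/- libraries. For C4b the same ratios were 2.58 and 1.67, and for C1qb they were 1.87 and 1.40. For C1qa they were 1.79 and 1.13, and for C3 they were 1.78 and 1.31. Cd59a went the other way, with 0.921 and 0.881. The astrocyte and reactive Müller glia gene Gfap had 999, 1223 and 3372 normalised reads in Emcn+/+ and 1347, 1258 and 2803 in Emcn-/-, so it was also highest in replicate 3 of each genotype. A list of 13 glial reactivity genes, all found and tested, had sums of 7125, 8166 and 17380 in Emcn+/+ and 8756, 8166 and 12850 in Emcn-/-. The haemoglobin gene Hbb-bs was likewise read at 470, 298 and 1432 in Emcn+/+ and at 462.5, 562 and 1535 in Emcn-/-. Emcn-/- replicate 3 had 1 Xist read and an interferon sum of 2735, the highest of its genotype, against 2334 and 2450 in the other Emcn-/- libraries. The part of glial reactivity, blood, sex or interferon response in the complement values was not tested.

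Within the lower title range, 2 libraries against 2, the Emcn-/- mean was 1.17 times the Emcn+/+ mean for C1qa, 1.04 for C1qb, 1.08 for C1qc, 1.15 for C3 and 0.870 for C4b. Within the higher range, 1 library against 1, the same ratios were 0.739, 0.778, 0.758, 0.846 and 0.564. For Serping1 they were 1.32 and 0.649, and for Cfi 1.09 and 0.607. The C1q, C3, Serping1 and Cfi ratios were thus on opposite sides of 1 in the title ranges, and the second set has no replicate.

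Serping1, Cfi and Cd59a are regulators. Serping1 encodes C1 inhibitor, which inactivates C1r and C1s, and it lies on GRCm38 chromosome 2, 84765387 to 84775444. It was read at 111, 132 and 347 normalised reads in Emcn+/+ and at 164, 156 and 225 in Emcn-/-. Emcn+/+ replicates 1 and 2 were below all Emcn-/- libraries and replicate 3 was above them. The log2 fold change was 0.06 ± 0.38 (SE; limma adjusted p = 0.974), while edgeR gave -0.11 (adjusted p = 0.954). Without Emcn+/+ replicate 3 it was 0.56 ± 0.18 (limma adjusted p = 0.166), the largest estimate among the members in that fit, and it did not pass.

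Cfi encodes factor I, the protease that inactivates cleaved C3 and C4. It is on the same chromosome as the deleted gene, at GRCm38 chromosome 3, 129835884 to 129875332, and its end lies 7.47 Mb before the start of Emcn. It was read at 21.8, 26.9 and 50.2 normalised reads in Emcn+/+ and at 32.1, 20.75 and 30.5 in Emcn-/-. The values overlapped (-0.17 ± 0.35, limma adjusted p = 0.912), with a 95% interval from 0.515-fold to 1.53-fold. Without Emcn+/+ replicate 3 the estimate was 0.17 ± 0.32 (limma adjusted p = 0.825).

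Cd59a, the membrane inhibitor of the terminal attack complex, was the 1 member whose genotypes did not overlap. It lies on GRCm38 chromosome 2, 104095801 to 104115354, plus strand. It was read at 444, 483 and 427 normalised reads in Emcn+/+ and at 599.8, 586 and 522 in Emcn-/-. All 3 Emcn-/- values were above all 3 Emcn+/+ values, with means of 451 ± 28.7 and 569 ± 41.4 (SD, n = 3). The log2 fold change was 0.33 ± 0.08 (SE), or 1.26-fold with a 95% interval of 1.10 to 1.44, and it did not pass over all genes (limma adjusted p = 0.400, unadjusted p = 0.00346). The estimate was 0.33 with edgeR (adjusted p = 0.411) and with DESeq2 (adjusted p = 0.295). It was 0.30 without Emcn+/+ replicate 3, and the Emcn-/- to Emcn+/+ ratio was 1.28 in the lower and 1.22 in the higher title range. With no overlap between the genotypes, these directions were fixed in advance, so only their sizes carry information. Over all alternatives its adjusted p ran from 0.133 to 0.943. Only 3.87% of the 50-base words of Cd59a occur in its paralog Cd59b.

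Cd59a was not alone in having higher values in Emcn-/-, as marker lists of other tissues and of rods show. Of 15 markers of retinal pigment epithelium, the layer behind the retina, all were found, none was at 0 and 14 were tested, each with a positive estimate (median 0.80). Their summed level was 8493, 4100 and 6747 normalised reads in Emcn+/+ and 9496, 13170 and 13010 in Emcn-/-. Within Emcn+/+, replicate 2 had the lowest pigment epithelium sum and the highest Cd59a, but the order of 3 libraries cannot weigh a relation between them. All 10 tested markers of ciliary body and iris, of 11 found, were positive as well, with sums of 1535 to 2428 and 2812 to 3176. All 10 rod markers were positive with a median of 0.09. The pigment epithelium and ciliary sums, like Cd59a, were higher in every Emcn-/- library than in any Emcn+/+ library. They therefore cannot be told apart from genotype here, and the part of these tissues and of rods in the Cd59a values was not tested.

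**Figure D3:**
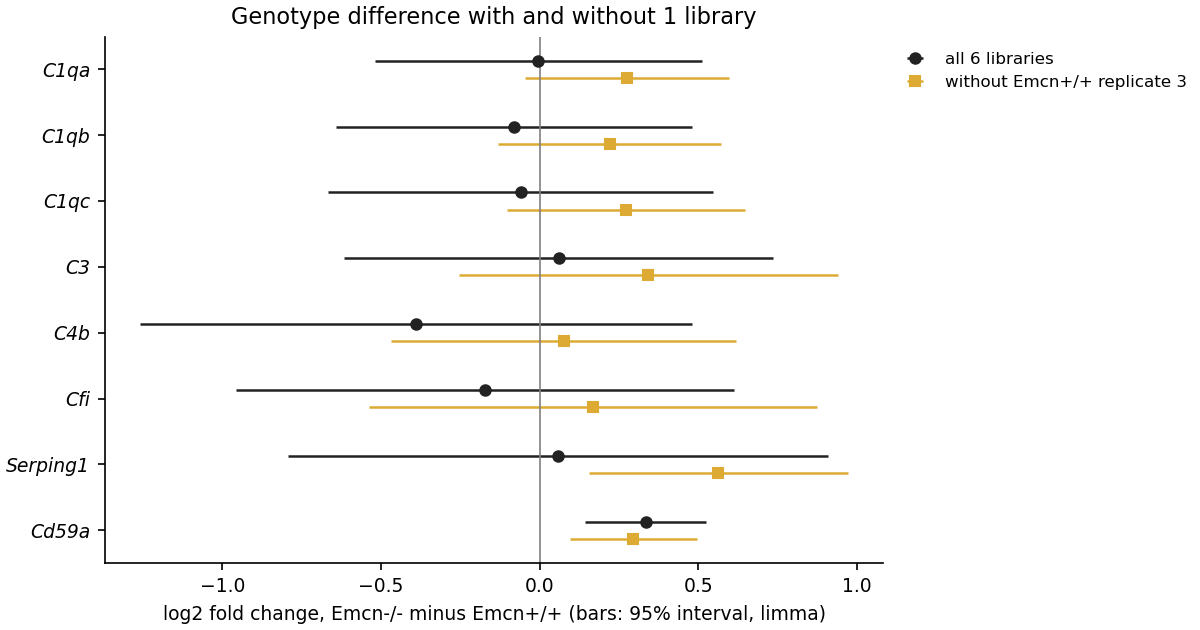
Log2 fold change of the 8 tested members, Emcn-/- minus Emcn+/+, with all libraries (black circles) and without Emcn+/+ replicate 3 (yellow squares); bars are 95% intervals from limma. The interval of Cd59a excludes 0 in both fits and that of Serping1 only without the library, and neither passes the adjusted threshold.

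Without Emcn+/+ replicate 3, the estimate was positive for each of the 8 members tested, and their median was 0.27 against 0.01 over all genes. None passed limma's adjusted threshold there, where 0.905% of all tested genes did. C1qa was at 0.28 ± 0.14 (limma adjusted p = 0.362), C1qb at 0.22 ± 0.16 (0.512), C1qc at 0.27 ± 0.17 (0.446) and C3 at 0.34 ± 0.27 (0.553). That fit compares 2 libraries of the lower title range with 3 that include Emcn-/- replicate 3, so title range and genotype are not balanced in it.

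Cfb, which encodes factor B, was at the limit of counting. It was read at 0, 6.49 and 2.18 normalised reads in Emcn+/+ and at 1.95, 1.04 and 2.77 in Emcn-/-, while 3 reads, the upper limit for a count of 0, amount to 2.77 to 3.28. Summed over libraries there were 9 reads in Emcn+/+ (95% exact Poisson interval 4.12 to 17.1) and 6 in Emcn-/- (2.20 to 13.1), intervals for counting error only. No difference was detectable at this depth. In GENCODE M21, 79.5% of the exonic bases of Cfb (GRCm38 chromosome 17, 34856374 to 34862518) also belong to Gm20547, a gene model on the same strand that runs across Cfb and C2. Reads there may not have been assigned to Cfb, so its low value is uncertain.

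None of the other complement genes tested passed over all genes either. Of 46 further symbols, 34 were found and 24 tested, of which 8 had positive and 16 negative log2 fold changes (median -0.22) and 0 passed with limma, edgeR or DESeq2. At an unadjusted p under 0.05 there were 4 of 24, against 8.14% of all tested genes. The genotypes did not overlap for 0 in the higher direction (7.48% of all tested genes) and for 3 in the lower (6.94%), C4a, Csmd1 and Csmd2. Without Emcn+/+ replicate 3 some estimates were smaller in size, such as -0.08 against -0.45 for C1ra and -0.14 against -0.48 for C3ar1. Others were larger in size, such as -0.50 against -0.27 for Itgam and -0.60 against -0.47 for Csmd2.

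Among initiators of the classical and lectin pathways, 5 of 9 genes found were tested, 1 positive and 4 negative. The C1q-associated proteases C1ra (26.9 ± 13.6 normalised reads for Emcn+/+ and 18.1 ± 2.89 for Emcn-/-, SD over 3 libraries) and C1s1 (20.05 ± 2.501 and 21.8 ± 12.3) were low and overlapped. C2, whose product pairs with C4 in the classical C3-cleaving enzyme, was at 14.9 ± 0.888 and 12.6 ± 3.94, and 42.8% of its exonic bases belong to Gm20547 too. The alternative pathway stabiliser properdin, Cfp, was at 80.1 ± 18.1 and 72.4 ± 18.6. Of the terminal components only C8g, 1 of 2 found, was tested (37.75 ± 5.16 and 33.45 ± 7.89), and C8b did not exceed 2 reads in any library.

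Receptors for complement fragments were read at low levels. The C3a receptor gene C3ar1 was at 23.9, 30.6 and 55.7 normalised reads in Emcn+/+ and 24.3, 14.5 and 40.7 in Emcn-/-, again highest in replicate 3 of each genotype (-0.48 ± 0.42, limma adjusted p = 0.781). The C5a receptor gene C5ar1 was at 20.7, 11.1 and 24.0 in Emcn+/+ and 5.84, 9.34 and 14.8 in Emcn-/- (-0.85 ± 0.43, limma adjusted p = 0.646). Itgam (19.65 ± 9.13 and 15.4 ± 3.51) and Itgb2 (43.1 ± 22.1 and 40.5 ± 9.90), which together encode complement receptor 3 of microglia, overlapped. The receptor list had 2 positive and 4 negative members of 6 tested, with Cd93, an endothelial and myeloid glycoprotein, the most abundant (746 ± 59.5 and 836 ± 219).

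The regulators include the most abundant complement genes of these retinas. Clusterin, Clu, which binds the terminal complex, was at 8996 ± 1152 and 10220 ± 587 normalised reads in the same order (0.19 ± 0.09 SE, limma adjusted p = 0.643). Vitronectin, Vtn, was at 9536 ± 653 and 10110 ± 355 (0.09 ± 0.06, limma adjusted p = 0.737). Cd55, a membrane regulator, was low at 17.1 ± 2.54 and 14.7 ± 5.25. Csmd2, a large neuronal membrane protein with complement-control domains, was at 472, 437.5 and 348 in Emcn+/+ and near 299 in each Emcn-/- library (299.9, 299 and 299.4; -0.47 ± 0.12, limma adjusted p = 0.400). It was the 1 complement gene past the threshold without Emcn+/+ replicate 3 (-0.60 ± 0.09, limma adjusted p = 0.0233). That fit called 0.905% of all tested genes, left out the lowest Emcn+/+ value of Csmd2 (348) and did not balance title range and genotype. Of the 11 tested regulators, 5 were positive and 6 negative.

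**Figure D4:**
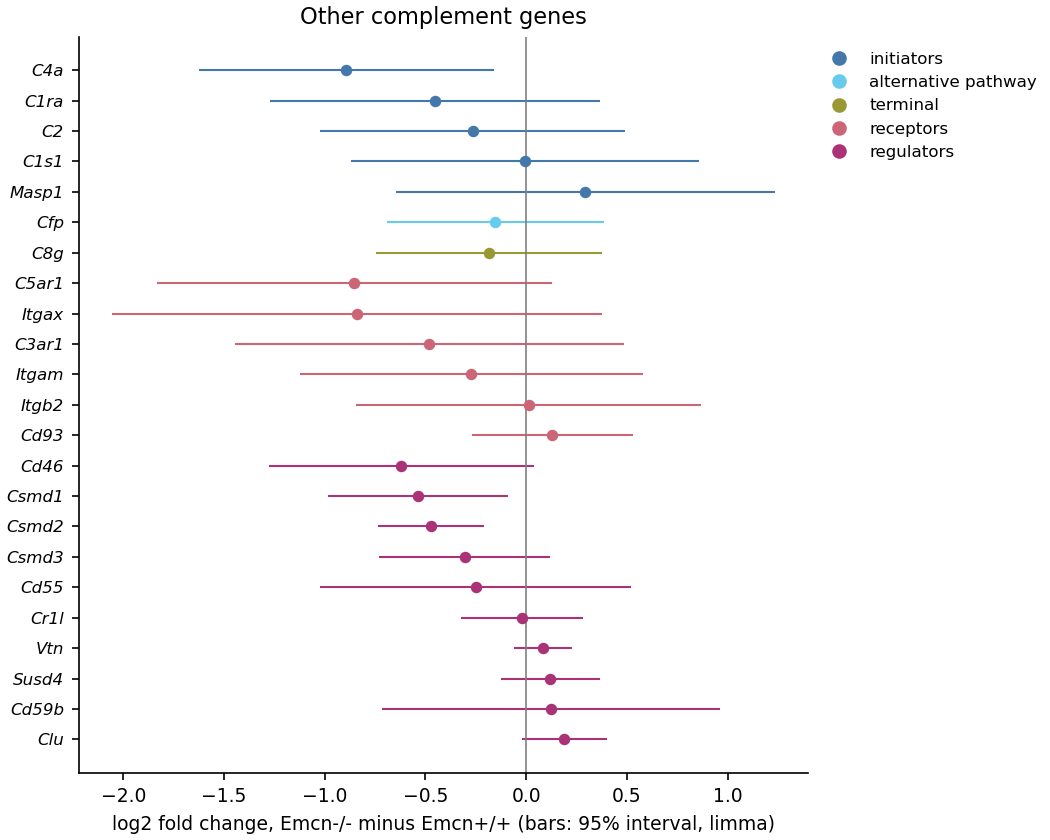
Log2 fold change, Emcn-/- minus Emcn+/+, of 23 other tested complement genes, coloured by role, with 95% intervals from limma. Csmd2 (-0.47) has the smallest p, and no gene passed the adjusted threshold.

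The genes whose pattern over the 6 libraries was most like that of 3 members were found by the mean absolute difference of centred log2 values among 12091 genes with a mean of at least 50 normalised reads. For C1qb these were the cadherin gene Cdh13 (0.03), the membrane linker gene Msn (0.05) and the intermediate filament gene Vim (0.05). For C4b they were Lgals3 (0.08), Capg (0.09) and the growth factor gene Fgf2 (0.11), and for C3 they were Col1a2 (0.10), Mrc2 (0.10) and Prph (0.10). Vim, abundant in Müller glia, was read at 3823, 3340 and 6812 in Emcn+/+ and at 3940, 4035 and 5444 in Emcn-/-. It was highest in replicate 3 of each genotype, as C1qb was. A list of 10 Müller glia markers that includes Vim had sums of 69680, 62510 and 56280 in Emcn+/+. In Emcn-/- the sums were 73690, 71970 and 63090, so the sum was lowest in replicate 3 of each genotype. Glul was its largest part, with 34450 normalised reads in Emcn+/+ replicate 1, so the sum does not describe each marker. Replicate 3 of both genotypes was above all other libraries for 2 of these 10 markers. Their part in the C1qb values was not tested.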

How the data were processed

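Poly-A RNA of mouse retina was sequenced in 6 libraries; GRCm38 is the build named in the submitters' processing notes, while for aligner, counter, strand setting, annotation and scaling the labels name nothing. The authors deposited a signal per gene that is not whole and not divided by gene length. In each library 100% of values were whole multiples of 1 step (tolerance 0.001), and reads were recovered by dividing by it. All 6 value columns were used. Values are called normalised reads, and 1 read was worth 0.924 to 1.09 of them.

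The fit was limma 3.58.1 with an intensity trend on log2(value + 1), genotype as the only term, over the 16681 genes kept by edgeR's filter (minimum count 10), with Benjamini-Hochberg adjustment at 0.05. limma was used because the table holds normalised values. edgeR 4.0.16 and DESeq2 1.42.0 (no independent filtering) ran on the recovered reads as alternatives. The scripts were tested on simulated data. Positions and exonic lengths come from GENCODE M21 (27386 of 28627 IDs matched). The members and lists were chosen with earlier results of these data known. Named were all members, the highest and smallest-p gene of each further complement list, 10 fixed complement genes (1 is not reported here), 3 like genes each for C1qb, C3 and C4b, Emcn, and the highest or lowest gene of a marker list. Cx3cr1, Gfap, Xist, Csmd1, C8b and Cr2 were named after their values were seen. Replicate numbers follow sample order and pair nothing. Fits within the lower title range were added after seeing the data. Other alternatives covered scaling, filter, pseudocount, model, each library left out and a title term.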

Additional observations from a re-analysis of the deposited data

How the results depend on the processing

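No member passed the adjusted threshold under any of 16 alternatives, and Cd59a was positive in each (0.295 to 0.395 without 1 library). Because its genotypes did not overlap, leaving out libraries could not change that sign. The count of genes past the threshold, 1 with all libraries, was 67 with DESeq2, 0 at a minimum mean of 50 and 42 in the lower title range alone, and ran from 0 to 151 without 1 library (0 without Emcn+/+ replicate 1, Emcn+/+ replicate 2 or Emcn-/- replicate 1, and 151 without Emcn+/+ replicate 3). In the lower title range alone, log2 fold changes turned positive for C1qa (0.21), C1qb (0.059), C1qc (0.11) and Cfi (0.091). C1qa was 0.0009 with upper-quartile scaling. Serping1 was -0.11 with edgeR and -0.12 with DESeq2. Without 1 library, log2 fold changes ran from -0.17 to 0.28 for C1qa, -0.26 to 0.22 for C1qb, -0.25 to 0.27 for C1qc, -0.21 to 0.34 for C3, -0.77 to 0.0754 for C4b, -0.42 to 0.17 for Cfi and -0.26 to 0.56 for Serping1. The genotype difference in the margin of C1q over C3 and C4b, 0.12 with all libraries, ran from -0.04 to 0.21. The cause was not tested. No paired analysis was possible because the labels give the genotypes no shared replicate number. Each title range holds equal numbers of both genotypes, so a term for it could not change the estimates, only their errors. The limma fit with that term called 1 gene, with an adjusted p of 0.408 for C4b and 0.133 for Cd59a. Cfb was not tested, and Cfi has no value at a minimum mean of 50. The filter on low values left Cfb out.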

Other observations

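Cr2, which encodes a receptor for C3 fragments best known from B cells and follicular dendritic cells, lay under the filter on low values and was chosen here after its values were seen. It had 6, 5 and 6 reads in Emcn+/+ replicates 1, 2 and 3 and 0, 0 and 1 in the Emcn-/- replicates. The sums were 17 (95% exact Poisson interval 9.90 to 27.2) and 1 (0.03 to 5.57), for counting error only, and all counts are close to the limit of 3 reads that a count of 0 allows.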
